A study of Mus musculus with 4 samples.

Results

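Ancient LINE copies made up 2649 of the 36284 repeat copies in the deposited repeat table, or 7.30%, and carried 86 of its 1040 repeat names. They were chosen by the start of the repeat name alone: L1M followed by a capital letter or a digit, L2, L3, L4, CR1, or X with a number and LINE. By these names 800 copies were L2, 436 were L1M with a number, 345 L1MB, 327 L1MC, 283 L1ME, 219 L1MA, 129 L3, 98 L1MD, 9 L4, 2 CR1 and 1 X_LINE. The table names each copy by its repeat name and a number, with no position on the genome, so no copy could be assigned to a gene, an exon or an intron. The age of a copy follows from its name and was not measured.

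LINEs are retrotransposons that spread by reverse transcription of their own RNA. The L1M families are mammalian LINE-1 lineages that stopped copying long ago, with L1MA among the younger and L1ME among the older ones, and L2, L3 and CR1 belong to still older groups of LINEs. Their copies are mostly short, mutated fragments that no longer encode a working reverse transcriptase. Many lie in introns and untranslated regions of genes, so RNA read over a copy can belong to the transcript of a host gene as well as to a transcript that starts in the copy, and counts per copy cannot tell these apart.

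The cells were mouse embryonic fibroblasts of the BALB/c strain, cultured connective tissue cells that were infected with a lentivirus at passage 2. The SON cells (2 libraries) received the genes of Stella (Dppa3), Oct4 (Pou5f1) and Nanos2, which act in the germ line or the early embryo, and the GFP control cells (2 libraries) received green fluorescent protein. Both groups were selected with 2 µg/ml puromycin from 72 h after infection for 4 days and were then grown for 21 days without it, so both carry a lentivirus and a drug resistance. The virus and the culture of its cells cannot be told apart from the delivered genes, and separate cultures or embryos are not named in the labels, so a p-value here reflects library spread that may be technical. In such bulk RNA, fewer cells of a type and less RNA per cell cannot be told apart. Values are normalized read counts, which are reads divided by 1 size factor per library. The library letters a and b are those of the repeat table and are not joined to the numerals of the gene table.

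The recovered repeat reads came to 565399 and 469737 in the SON libraries, and to 850223 and 1119717 in the GFP control libraries, so a difference in a copy with few reads is limited by the SON depth. The delivered genes checked the labels: Dppa3, Pou5f1 and Nanos2 had between 201 and 329 reads in the SON libraries and 0 or 1 in the GFP control libraries. All 10 fibroblast markers were read in every library, with a summed level of 230873 to 276270 in SON against 300191 to 588906 in the GFP control. Of the 10, 7 had a negative log2 difference, while Vim, Thy1 and S100a4 were at 0.28, 0.33 and 0.42. At an unadjusted limma p under 0.05, 4 of the 10 were lower, beside 6.57% of all tested genes, and 0 were called. The sums of the macrophage (5 genes), epithelial (5) and endothelial (3) markers were far smaller, at 260 to 532, 273 to 436 and 155 to 169 in SON against 534 to 617, 165 to 288 and 61.8 to 96.9 in the GFP control. The part of cell makeup in the repeat values was not tested. Rows named rRNA, 50 in number, took 22.3% of the repeat reads in SON a and 7.84% in SON b, against 1.97% in GFP control a and 3.33% in GFP control b. Values scaled without these rows stand beside the results they move.

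The summed level of all ancient LINE copies was close in the groups. It was 46630 in SON a and 51241 in SON b, against 55727 in GFP control a and 52171 in GFP control b. Both SON sums lay below both GFP control sums, and the log2 difference of SON minus GFP control was -0.14 (exact permutation test, two-sided p = 0.333, the smallest that 2 against 2 libraries allow). As a share of the repeat reads without the rRNA rows, ancient LINEs made up 7.81% and 8.05% in SON against 7.99% and 8.10% in the GFP control. These shares overlapped, with a log2 difference of -0.02 (exact permutation p = 0.667). With the rRNA rows in the total, the shares were 6.07% and 7.42% in SON against 7.84% and 7.83% in the GFP control. On the deposited scale the median log2 difference of all 17390 tested repeat copies was -0.11, against 0.01 with TMM factors in edgeR and 0.01 when scaled to the repeat reads without the rRNA rows, and differences on the deposited scale are read beside that shift.

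The sum was also set against those of 2 other groups of repeats. The log2 ratio of their sum to that of the 1400 copies of MIR, a SINE family of similar age, was 0.98 and 0.99 in SON against 0.95 and 1.00 in the GFP control (difference 0.01, exact permutation p = 1), with overlapping groups. Against the 1964 rodent LINE-1 copies (names starting L1Md or Lx), which are far younger, the log2 ratio was -0.07 and 0.05 in SON and 0.11 and 0.09 in the GFP control. Both SON ratios lay below both GFP control ratios, with a difference of -0.11 (exact permutation p = 0.333, again the smallest possible).

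Taken by family, no sum passed the test, and the most negative differences were in L1MA and L1ME. L1MA summed to 3929 and 5086 in SON against 5273 and 5746 in the GFP control, a log2 difference of -0.30 ± 0.15 (SE; 95% interval -0.63 to 0.03, limma adjusted p = 0.501). L1ME summed to 5313 and 5476 in SON against 6645 and 6100 in the GFP control, a log2 difference of -0.24 ± 0.13 (95% interval -0.52 to 0.04, limma adjusted p = 0.504). In both families the groups did not overlap. L1MA6_2741 held 25.8% of the L1MA reads, and without it the L1MA difference was -0.14. The median over tested L1MA copies was -0.004. L1ME was at -0.27 without its most read copy, with a median over tested copies of -0.26. L2, which held 32.4% of the ancient LINE reads, summed to 15523 and 16689 in SON against 18405 and 16462 in the GFP control (log2 difference -0.11, 95% interval -0.36 to 0.13), and its groups overlapped. L3 measured 3575 and 3830 in SON and 3687 and 3821 in the GFP control (-0.02, 95% interval -0.32 to 0.27), with overlapping groups.

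Among the remaining families with at least 98 copies, the log2 difference was -0.17 for L1MB, -0.14 for L1MD, -0.11 for the numbered L1M names and -0.10 for L1MC. The sum of L1MC was 5180 and 5673 in SON against 5884 and 5703 in the GFP control, a narrow separation. When scaled to the repeat reads without the rRNA rows, L1MA was at -0.18, L1ME at -0.12 and L1MB at -0.05, while the numbered L1M names, L1MC, L2 and L3 turned positive, at 0.01, 0.02, 0.01 and 0.10. The 9 copies of L4 summed to 82.9 and 110 in SON against 79.5 and 73.2 in the GFP control (log2 difference 0.32 ± 0.27, limma adjusted p = 0.679). The 2 CR1 copies measured 148 and 98.5 in SON against 119 and 114 in the GFP control, and the X_LINE copy 78.8 and 51.5 against 53.5 and 72.0, with groups that overlapped in both.

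**Figure D1:**
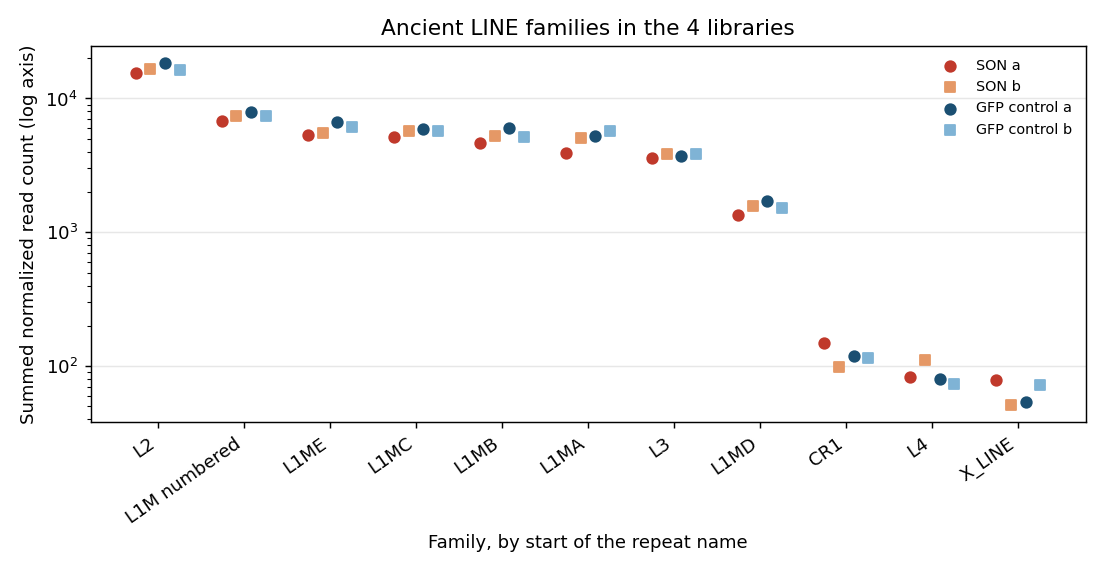
Summed normalized read count of each ancient LINE family (log axis) in the 2 SON and 2 GFP control libraries, ordered by reads. The points of a family lie close together: L2 lies between 15523 and 18405, and the gap between the groups in L1MA and L1ME is small beside the differences between families.

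Single copies had few reads. A member had a median of 37 reads over the 4 libraries, with a range of 21 to 6383, and 1714 members had fewer than 50. The 10 most read copies held 13.1% of all 223458 ancient LINE reads, and the 100 most read held 38.4%. The filter on low reads left 1314 members for the test. Of these, 104 passed with no SON library at the minimum and 86 with no GFP control library at it, so their direction was fixed by the filter.

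The 8 copies with the most reads had no adjusted p under 0.05 in limma on the 4 libraries. L2_12515 measured 1230 and 1122 in SON against 2473 and 1047 in GFP control a and b, so its GFP control values enclosed both SON values (log2 difference -0.45, and 0.17 without GFP control a). L1MA6_2741 measured 701 and 1025 in SON against 1239 and 1826 in the GFP control, with both SON values lower (log2 difference -0.83 ± 0.32, limma adjusted p = 0.497). With a library left out its log2 difference was -1.11 without GFP control a, -0.55 without GFP control b, -0.55 without SON a and -1.10 without SON b. L2_5795 measured 639 and 557 in SON against 670 and 691 in the GFP control. L1MB7_2683 measured 488 and 415 in SON against 658 and 506 in the GFP control. In these last copies the groups were separated by no more than the spread within 1 group. L1ME3B_217, L2_6418, L2_15583 and L1MA6_3911 had overlapping groups, with log2 differences between -0.24 and 0.08.

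No ancient LINE copy was called by limma over all tested repeat copies, nor by edgeR or limma voom. The background was the same, with 0 of 17390 copies called (0%). At an unadjusted p under 0.05, 54 members were higher and 93 lower in SON, or 4.11% and 7.08% of the 1314, beside 3.15% and 6.38% of all tested copies. With TMM factors in edgeR the split was 74 higher and 81 lower (background 4.37% and 5.83%), and scaled to the repeat reads without the rRNA rows it was 72 and 70 (background 4.53% and 4.96%). Both SON libraries lay above both GFP control libraries in 232 members, or 17.7%, and below in 316, or 24%, beside 17.1% and 24.2% of all tested copies. All of these counts hold members whose direction the filter fixed, 104 through the GFP control and 86 through SON. They were not taken again without those members, and the background was filtered in the same way. The members' median log2 difference was -0.10, beside -0.11 over all tested copies. The median absolute difference between the group means was 0.44, beside 0.45 over all tested copies. Between the single libraries of a group it was 0.43 in the GFP control and 0.61 in SON. Single libraries vary more than means of 2, so these values are not on the same footing as the 0.44. With 1 library left out, limma called 3 members without GFP control a, 5 without GFP control b, 59 without SON a and 87 without SON b, or 0.228%, 0.381%, 4.49% and 6.62%, beside 0.104%, 1.01%, 5.04% and 6.66% of all tested copies. By these counts and medians the ancient LINE copies lay near the background of the table.

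**Figure D2:**
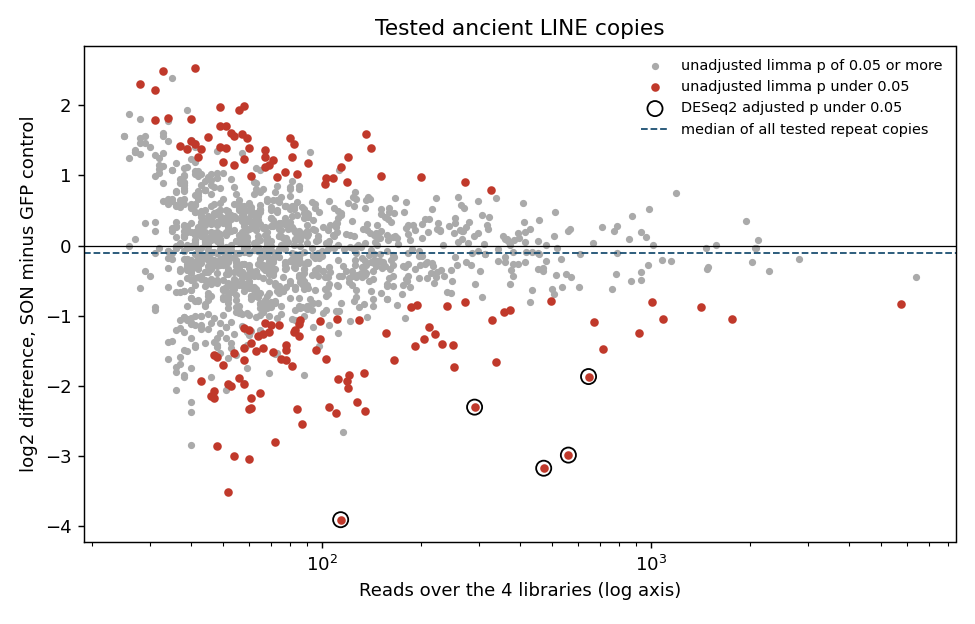
Log2 difference of SON minus GFP control for each of the 1314 tested ancient LINE copies, against its reads over the 4 libraries (log axis). Red points have an unadjusted limma p under 0.05 and rings mark the 5 copies with a DESeq2 adjusted p under 0.05. All rings lie at or below -1.87, and the scatter narrows with depth around the dashed median of all tested repeat copies at -0.11.

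DESeq2 on the recovered reads called 5 ancient LINE copies lower and 0 higher of 1314, or 0.381% and 0%, beside 0.397% lower and 0.184% higher of all copies tested; it gave no adjusted p to 739 of the 1314. They were L1MA7_3177, L1M4_13648, L1M5_4923, L1MCa_2366 and L3_1916, whose identity beyond the name is not given. L1MA7_3177 measured 12.2 and 39.7 in SON against 184 and 181 in the GFP control. Both GFP control values were more than 4 times either SON value (log2 difference -2.99 ± 0.50, limma adjusted p = 0.165, DESeq2 adjusted p = 2.19e-04). L1M4_13648 measured 8.15 and 32.3 in SON against 178 and 137 in the GFP control (-3.17 ± 0.56, limma adjusted p = 0.165, DESeq2 adjusted p = 2.83e-04). L3_1916 measured 27.2 and 11.8 in SON against 119 and 72.0 in the GFP control (-2.30 ± 0.47, limma adjusted p = 0.191, DESeq2 adjusted p = 0.0330). In each of these the lower GFP control library lay clearly above the higher SON library. L1M5_4923 had 4 and 0 reads in SON against 72 and 38 in the GFP control (DESeq2 adjusted p = 0.0291), and it passed the filter through the GFP control libraries alone.

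Further copies with separated groups and at least 100 reads lay lower in SON without a call in either test. L3b_1628 measured 8.15 and 7.35 in SON against 53.5 and 35.7 in the GFP control (log2 difference -2.36, limma adjusted p = 0.165, DESeq2 adjusted p = 0.0941). L1ME4a_1263 measured 2.72 and 11.8 in SON against 48.5 and 25.0 in the GFP control. L1MB5_2425 measured 0 and 29.4 in SON against 36.8 and 30.9 in the GFP control, so SON b nearly reached GFP control b. L1MEd_986, L2a_15650 and L2b_7517 had log2 differences of -2.30, -2.23 and -2.03, and with L3b_1628 they passed the filter through the GFP control libraries alone.

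The largest positive differences were smaller. L2a_3965 measured 28.5 and 86.8 in SON against 9.20 and 26.8 in the GFP control (log2 difference 1.60 ± 0.63, limma adjusted p = 0.497). L2b_5597 measured 38.0 and 79.4 in SON against 20.1 and 20.8 in the GFP control (1.39 ± 0.43, limma adjusted p = 0.402). L1MA6_4727 measured 44.8 and 48.5 in SON against 20.1 and 17.9 in the GFP control (1.26 ± 0.36, limma adjusted p = 0.355). The libraries of each group were close in L1MA6_4727, while SON b was far above SON a in L2a_3965 and L2b_5597. L1MC5_2258 measured 54.4 and 51.5 in SON against 25.1 and 27.4 in the GFP control, and L1M5_9403 89.7 in both SON libraries against 37.6 and 59.5 in the GFP control. The others of these 10, L1M3_510, L1M4_6701, L1M4_8264, L1MC2_866 and L1MC4a_1063, lay between 0.96 and 1.11 on the log2 scale, with DESeq2 adjusted p-values of at least 0.273 over the 10.

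**Figure D3:**
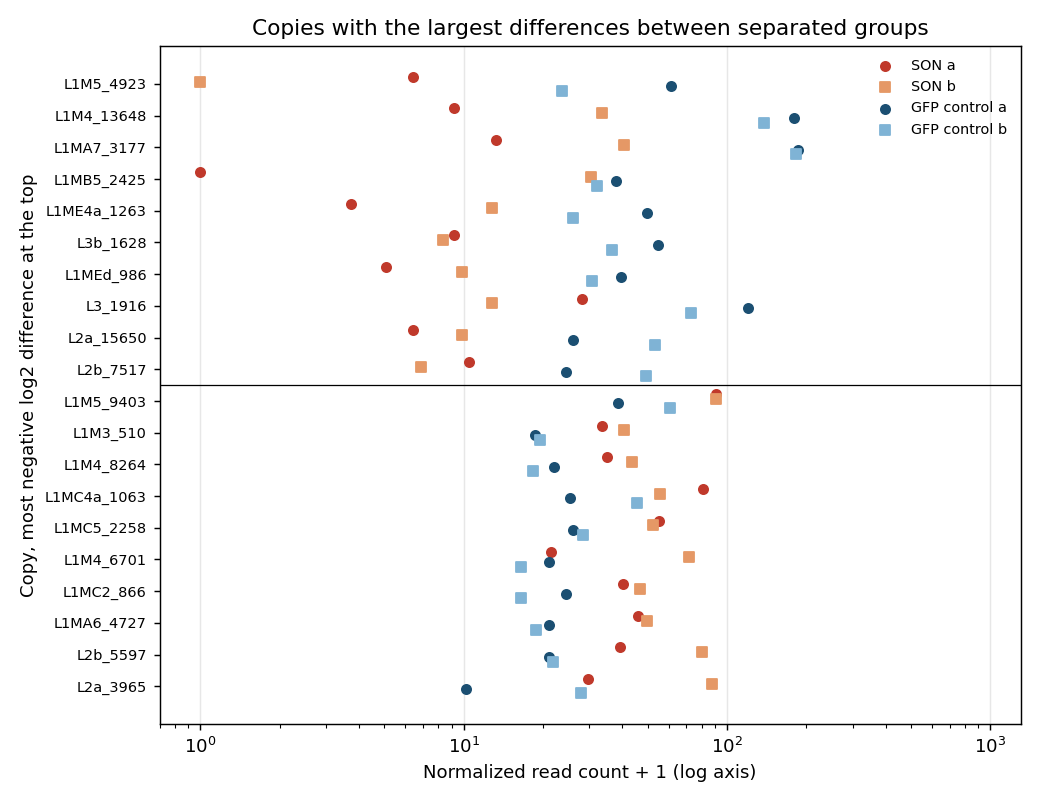
Normalized read count plus 1 (log axis) in each library for the 10 ancient LINE copies with the most negative and the 10 with the most positive log2 difference among copies with separated groups and at least 100 reads. Above the line all SON points lie left of the GFP control points, with L1M4_13648 and L1MA7_3177 farthest to the right in the GFP control; below it they lie to the right, and the gaps are narrower.

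Of the members, 7 had 0 reads in both SON libraries and 0 had 0 reads in both GFP control libraries. The GFP control libraries were deeper, with 850223 and 1119717 repeat reads against 565399 and 469737 in SON. A copy with few reads thus reaches 0 more readily in SON. These counts are not set beside those of all repeat copies and are not read as a result about the members. The most read of the 7, L1MB8_5010, had 0 and 0 reads in SON against 24 and 12 in the GFP control. Its GFP control mean was 6.42 times a floor of 3 reads over the SON group, or 2.12 normalized counts. L1M2_16875 had 19 and 12 reads in the GFP control, with a mean 5.44 times that floor. For L1MEc_4831, L1M3_2842 and L1M5_6152 the ratios were 4.06, 3.66 and 3.63, and L1MEc_4831 had 17 and 5 reads in the GFP control. The other 2, L1MD_5852 and L2_6252, had 21 GFP control reads each, and none of the 7 was deep enough to be tested. The floor covers counting error in SON only, and the GFP control mean was taken without error, so the ratios are not lower bounds.

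Summed per name, 82 of the 86 ancient LINE names had enough reads to be tested, and limma called 0 of them, beside 8 of 943 names in the table (0.848%). At an unadjusted p under 0.05, 1 name was higher and 11 were lower in SON, or 1.22% and 13.4% of the 82, beside 2.55% and 9.33% of all names. Both SON libraries lay below both GFP control libraries in 31 names (37.8%, background 32.1%) and above in 11 (13.4%, background 13%). With TMM factors in edgeR the unadjusted counts were 4 higher and 6 lower, with 0 called. DESeq2 called L1MCa alone, lower in SON, or 1.22% of the 82 beside 1.7% of all names, and it called 0 higher beside 0.53%.

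Among names with separated groups and at least 200 reads, L1MCa had the most negative difference, with 262 and 300 in SON against 479 and 701 in the GFP control (log2 difference -1.04 ± 0.23, limma adjusted p = 0.0710). With a library left out, L1MCa was at -1.32 without GFP control a, -0.77 without GFP control b, -0.95 without SON a and -1.14 without SON b. Its adjusted p was 0.262 in edgeR with TMM factors and 0.372 in limma voom. In limma scaled to the repeat reads without the rRNA rows it was 0.227. Of its reads, 52.1% lay in 3 copies with numbers that follow each other. L1MCa_2366 measured 58.4 and 41.2 in SON against 133 and 248 in the GFP control (log2 difference -1.87 ± 0.39, limma adjusted p = 0.196, DESeq2 adjusted p = 0.0301). L1MCa_2365 measured 19.0 and 23.5 in SON against 58.6 and 90.4 in the GFP control. L1MCa_2364 measured 25.8 and 23.5 in SON against 46.8 and 77.4 in the GFP control. All 3 were lower in both SON libraries, and GFP control b was the highest library in each. Summed, the 3 copies measured 103 and 88.2 in SON against 238 and 415 in the GFP control, a log2 difference of -1.71. The other 16 copies summed to 159 and 212 in SON against 240 and 286 in the GFP control, with a log2 difference of -0.51. This division was chosen after the values were seen and was not tested.

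In 3 further names much of the difference lay in 1 copy. L1ME3 summed to 136 and 210 in SON against 269 and 311 in the GFP control (log2 difference -0.77 ± 0.25, limma adjusted p = 0.232). Its copy L1ME3_161 held 65.7% of the reads, and without it the difference was 0.13. L1ME4c measured 189 and 229 in SON against 351 and 308 in the GFP control (-0.66 ± 0.21, limma adjusted p = 0.232). L1ME4c_365 held 81.5% of its reads, and without that copy the difference was -0.06. L1MA6 measured 1404 and 1994 in SON against 2096 and 2836 in the GFP control (-0.54 ± 0.20, limma adjusted p = 0.322), and without L1MA6_2741, which held 59.6% of the reads, the difference was -0.17. The L1MA sum without the same copy was at -0.14. In 4 other names at an unadjusted limma p under 0.05, the difference did not rest on the most read copy. L1MB3 measured 705 and 659 in SON against 1100.1 and 881 in the GFP control (-0.53 ± 0.18, limma adjusted p = 0.254), and was at -0.42 without its most read copy. L1ME4a measured 765 and 822 in SON against 1180.4 and 1021 in the GFP control (-0.47, and -0.57 without that copy). L1MA7 and L1MEd were at -0.46 and -0.47, and at -0.51 and -0.48 without it. In all 4, which were picked by that p-value, both SON values lay below both GFP control values. Of the other names lower in SON under that limit, L1ME3F moved from -0.86 to -0.64 without its most read copy. L1M7 (log2 difference -1.02) had 72.2% of its reads in 1 of its 2 copies and was not tested without it. L1ME5 (-1.52) is a single copy, so its difference lies in that copy alone.

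Among the names with higher normalized counts in SON, L1M3e measured 101 and 107 in SON against 70.3 and 55.3 in the GFP control (log2 difference 0.73 ± 0.26, limma adjusted p = 0.293), and it was at 0.75 without its most read copy. L1MC2 measured 735 and 829 in SON against 565 and 634 in the GFP control (0.38 ± 0.18, limma adjusted p = 0.445). L1M4a2 and L1MB4 were at 0.46 and 0.27. The most read names lay closer to 0. L2 measured 6629 and 6682 in SON against 7885 and 6200 in the GFP control (-0.07 ± 0.14), L2a 3757 and 4354 against 4042 and 4106 (-0.01 ± 0.14), and L2b 2632 and 2986 against 3190 and 3063 (-0.16 ± 0.14). L2c measured 2504 and 2667 in SON against 3288 and 3094 in the GFP control (-0.30 ± 0.14, limma adjusted p = 0.434), and it was the one L2 name besides L2b with separated groups.

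**Figure D4:**
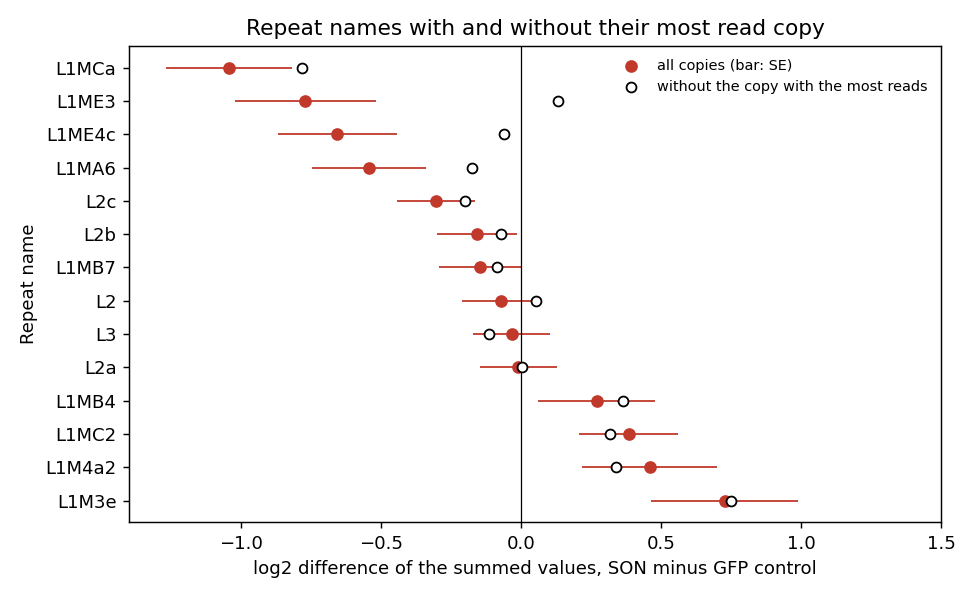
Log2 difference of SON minus GFP control for the summed values of 14 ancient LINE names, with the standard error as a bar. Open circles give the same value without the most read copy of the name. The circles of L1ME3, L1ME4c and L1MA6 move to 0.13, -0.06 and -0.17, while L1MCa stays at -0.78 and L1M3e at 0.75.

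Copies of 1 name whose numbers were 1 apart had correlated differences, though not all of the same sign. Over 149 such pairs of tested copies, the log2 difference of one correlated with that of the other at Pearson's r = 0.56 and Spearman's rho = 0.52, and 95 pairs (63.8%) had the same sign. For pairs 2 to 10 apart r was -0.09 (79 pairs), for 11 to 100 apart 0.04 (361 pairs), and for over 100 apart 0.02 (646 pairs, 50.3% with the same sign). These are correlations across copies, which share the 4 libraries and are not independent replicates. Pairs 1 apart also had more reads, with a median of 84 per copy against 64 for those over 100 apart. The difference between GFP control a and b, within 1 group, correlated at 0.34 in pairs 1 apart and at 0.04 in pairs over 100 apart. The sources used here do not say what the numbers count, and whether copies 1 apart share a transcript or reads was not tested.

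In 8 of the 149 pairs both copies lay below -1, in 3 both lay above 1, and in 0 they lay past 1 in opposite directions, against 8, 3 and 9 of the 646 pairs over 100 apart. Leaving out pairs with a copy that passed the filter through 1 group alone, whose direction the filter fixed, these counts were 4, 1 and 0 of 120 pairs 1 apart and 4, 0 and 1 of 462 pairs over 100 apart. The correlation over the 120 pairs was 0.58, with 62.5% of the same sign. Pairs can share a copy. Among those with both copies below -1, L1MCa_2365 stands in a pair with L1MCa_2364 and in another with L1MCa_2366. L1ME4a_1262 measured 5.44 and 2.94 in SON against 39.3 and 20.2 in the GFP control, and its neighbour in number L1ME4a_1263, given above, had a log2 difference of -2.38 beside its -2.54. L1MD1_87 measured 6.79 and 13.2 in SON against 34.3 and 28.6 in the GFP control, and L1MD1_88 measured 16.3 and 7.35 against 46.8 and 36.3. L1MEd_985 had a log2 difference of -2.07 beside -2.30 for L1MEd_986. L1ME4a_1262, L1MEd_985, L1MEd_986, L1M4_11542 and L1MB5_2426 of these pairs passed the filter through the GFP control libraries alone, and L2_4945 and L2_15765 through the SON libraries alone. Among pairs with higher normalized counts in SON, L2_4945 measured 10.9 and 11.8 in SON against 1.67 and 6.55 in the GFP control, and L2_4946 measured 20.4 and 27.9 against 5.02 and 11.3. Counts of copies given above take each of these as a separate copy.

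**Figure D5:**
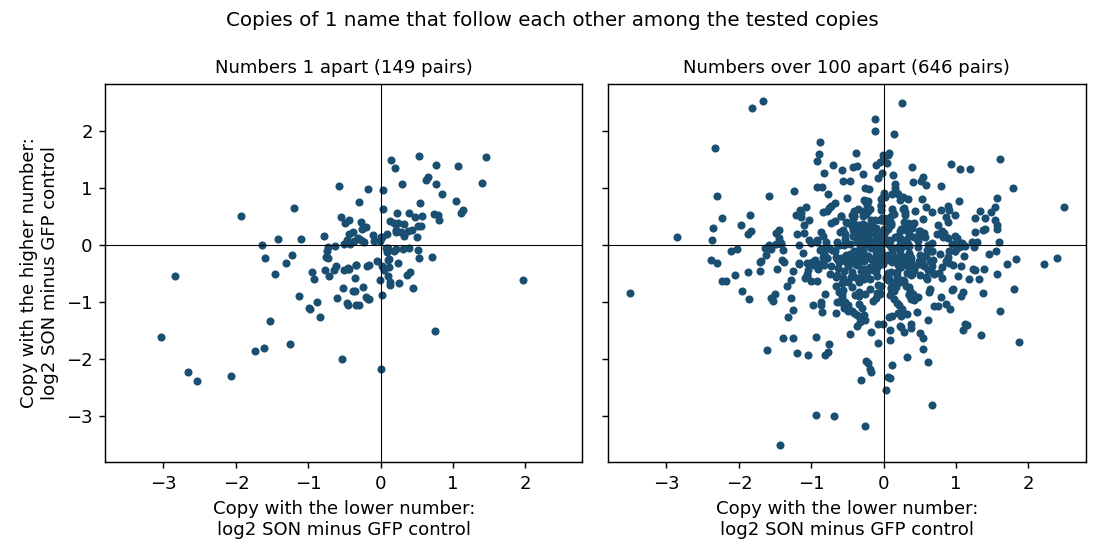
Log2 difference of SON minus GFP control of the copy with the lower number (x axis) and of the copy with the higher number (y axis), for copies of the same name that follow each other among the tested copies. The 149 pairs with numbers 1 apart spread along the diagonal (r = 0.56), and the 646 pairs over 100 apart form a round cloud (r = 0.02).

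Precision depended on depth. Among members with fewer than 50 reads that were tested, the median standard error of the log2 difference was 0.66, and it was 0.50 for 50 to 99 reads, 0.40 for 100 to 299 and 0.32 for 300 or more. Taken over all members of each class, tested or not (382 of 1714 were tested in the lowest), the median difference stayed between -0.17 and -0.11. Over all repeat copies in the 4 classes it lay between -0.18 and -0.14. Among the 110 members with at least 300 reads, both SON libraries lay below both GFP control libraries in 32.7% and above in 15.5%, beside 36.6% and 14.4% of all repeat copies of that depth.

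Genes that silence LINEs or restrict them were measured in the gene table. Of a list of 28 symbols, 25 genes were tested, and limma called 0 of them, beside 8 of 15283 genes (0.0523%). At an unadjusted limma p under 0.05, 0 of the 25 were higher, beside 5.99% of all tested genes. Lower were 4 of the 25, a larger share than the 6.57% of all tested genes. The list's median log2 difference was -0.12, against -0.01 over all tested genes. Trim28, a corepressor that recruits the histone methyltransferase Setdb1 to retroelements, measured 6514 and 5093 in SON against 5666 and 5676 in the GFP control. Setdb1 measured 1246 and 1030 in SON against 1024 and 1102 in the GFP control. Mphosph8 of the HUSH complex, which silences LINE-1, measured 829 and 1036 in SON against 747 and 808 in the GFP control. Dnmt1, the maintenance DNA methyltransferase, measured 2949 and 1604 in SON and 1670 and 1923 in the GFP control. Those 4 genes did not pass the test, and Trim28, Setdb1 and Dnmt1 had overlapping groups. Their log2 differences were between 0.02 and 0.28, while 14 of the 25 tested genes had a negative one. Other silencing genes of the list lay on both sides. Dnmt3b was at -0.63, Cbx3 at -0.46 and Sirt6 at -0.46, and Suv39h2 was at 0.40, Uhrf1 at 0.25 and Atf7ip at 0.19. The SON libraries were split in Suv39h2 (158 and 45.5 against 54.3 and 76.1 in the GFP control) and Uhrf1 (1439 and 444 against 602 and 745). In both genes only SON I was above the GFP control, and SON II was below it. The groups of Dnmt3b overlapped too. The 4 lower genes at an unadjusted limma p under 0.05 were Bst2, Zc3hav1, Adar and Mov10. Bst2, an antiviral membrane protein, measured 2608 and 2106 in SON against 5786 and 4898 in the GFP control (log2 difference -1.18, limma adjusted p = 0.230). Zc3hav1, an antiviral protein that also restricts LINE-1, measured 1887 and 1766 in SON against 3704 and 2891 in the GFP control (log2 difference -0.84, limma adjusted p = 0.249). Adar, an RNA editing enzyme, measured 2134 and 1845 in SON against 3279 and 2786 in the GFP control (-0.61, limma adjusted p = 0.279). Mov10, an RNA helicase that inhibits retrotransposition, measured 791 and 942 in SON against 1239 and 1226 in the GFP control (-0.51, limma adjusted p = 0.326). In each of the 4 both SON values lay below both GFP control values, which adds little because they were picked as lower by that p-value. The list was put together with results of these data known, and the part of these genes in the repeat values was not tested.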

How the data were processed

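The members, lists and tests were chosen with earlier results of these data known. RNA libraries were made with the TruSeq mRNA kit v2, per the labels' protocols. Tools in the submitters' processing notes include the aligners STAR (2.4.0j) and TopHat2 (2.0.11), the counters featureCounts and HTSeq (0.5.3p3), and DESeq2, with no role for either table. No source used here says how a read that matched many copies was counted. The authors deposited a signal per repeat copy and per gene, a normalized count: within each library every repeat value was a whole multiple of 1 step, within 6.91e-11 reads. No listed copy had fewer than 21 reads in all. Columns name the group and a letter, and were used by group.

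Computed here: reads recovered from the steps; limma 3.58.1 (R 4.3.3) with trend on log2(value + 1), two-sided, Benjamini-Hochberg over all tested copies, names, or families with the other names, after filterByExpr of edgeR 4.0.16 on the group; called at adjusted p under 0.05. The genes were fitted likewise, after the same filter. Single values per library had an exact permutation test. Alternatives were other pseudocounts and filters, edgeR, DESeq2 1.42.0 and limma voom on the reads, other scalings, each library left out, a block, and sums without the most read copy. The scaling without rRNA rows was chosen after seeing the data. The fit was tested on simulated data. Named items are the names and copies that limma called, those with the largest differences among separated groups (at least 200 reads for names, 100 for copies), those with the most reads, and copies at 0 in 1 group. Copies called by DESeq2 and pairs with numbers 1 apart were named after their values were seen. Reads of any 2 libraries differed beyond sampling noise (chi-square over its degrees of freedom at least 2.74).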

Additional observations from a re-analysis of the deposited data

How the results depend on the processing

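With 2 libraries a group, a copy under 50 reads can be told apart only for large differences. Log2 differences of named copies kept their direction and stayed without a call in 366 alternative fits, gained a call in 39 and turned in 15; for names the counts were 214, 3 and 20, and for families 109, 0 and 11. The causes of the changes below were not tested.

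Member copies called: 5 with DESeq2 and 8 with the column letter as a replicate block, of which 0 were higher (block background 0.903%), and between 3 and 87 with 1 library left out, where a lone library is assumed to vary like the others. Without GFP control a 0 were higher and 3 lower (background 0.104%), without GFP control b 1 and 4 (1.01%), without SON a 12 and 47 (5.04%), and without SON b 4 and 83 (6.66%). No label says that the letters pair the libraries, and over 17390 copies the differences a minus b of the groups correlated at 0.099; with 2 pairs this cannot show whether they do. Member names called: 1 with DESeq2, 1 with the block, and between 0 and 1 with a library left out; the name was L1MCa.

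Member copies higher at an unadjusted p under 0.05 (54) numbered 91 with no filter, 20 with at least 20 reads in 2 libraries, 25 with DESeq2, 34 scaled to the repeat reads, and 21 to 111 with a library left out. Those lower (93) numbered 150 with no filter, 45 with DESeq2, 38 with limma voom, and 27 to 194 with a library left out. Names higher (1) numbered 4 with edgeR and TMM factors, 2 with DESeq2, 4 with limma voom, 3 scaled without rRNA rows, 2 with filtered copies only, and 0 to 4 with a library left out. Names lower (11) numbered 6 with edgeR and TMM factors, DESeq2, limma voom, the scaling without rRNA rows and the sums without the most read copy, and 3 to 13 with a library left out.

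The total was at -0.021 when scaled without rRNA rows. That scaling turned the numbered L1M names to 0.015, L1MC to 0.024, L2 to 0.0071 and L3 to 0.10; scaling to all repeat reads turned CR1 to -0.029 and X_LINE to -0.044. With a library left out the family CR1 ranged from -0.24 to 0.34, L3 from -0.070 to 0.029 and X_LINE from -0.27 to 0.34.

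Without its most read copy the name L1ME3 turned to 0.13, L2 to 0.053 and L2a to 0.0024. With edgeR and TMM factors, DESeq2, limma voom and the scaling without rRNA rows, in this order, the name L2 was at 0.057, 0.042, 0.074 and 0.049, L2a at 0.12, 0.11, 0.11 and 0.11, L3 at 0.094, 0.079, 0.088 and 0.086, the copy L2_15583 at 0.038, 0.058, 0.036 and 0.079, and L2_6418 at 0.041, 0.061, 0.041 and 0.084. L1ME3B_217 was at -0.0031 scaled to the repeat reads. With a library left out, the name L2 ranged from -0.24 to 0.10, L2a from -0.12 to 0.096 and L3 from -0.091 to 0.023. The copy L2_12515 ranged from -1.07 to 0.17 (the highest without GFP control a), L1MA6_3911 from -0.58 to 0.097, L1ME3B_217 from -0.099 to 0.26, L2_15583 from -0.10 to 0.020 and L2_6418 from -0.17 to 0.10.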
